A study of Caenorhabditis elegans with 104 samples.

Results

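The genes described here are 9 chaperone genes of the nematode Caenorhabditis elegans that are expressed without stress or that serve an organelle, chosen by name and not by their measured values, out of 18889 genes on the arrays. The cytosolic members were hsp-1 (F26D10.3), hsp-90 (C47E8.5) and hsp-110 (C30C11.4). The members of the endoplasmic reticulum (ER) were hsp-3 (C15H9.6) and hsp-4 (F43E2.8), and those of the mitochondria were hsp-6 (C37H5.8) and hsp-60 (Y22D7AL.5). The small heat shock protein genes hsp-12.6 (F38E11.2) and sip-1 (F43D9.4) completed the set. Each member had 1 probe, and each had a value on every array except hsp-6, for which 1 array of day 8 and 1 of day 14 had none.

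RNA of single wild-type (N2) worms of 1 cohort, kept at 20 °C on bacterial lawns, was measured on 2-colour arrays, 1 worm per array. The 7 ages held 13 worms at day 4, 17 worms at each of days 8, 12, 14 and 16, 14 worms at day 20 and 9 worms at day 24, taken from 20 worms picked at random per age and filmed, with samples that failed quality control discarded. Each worm, labelled with Cy5, was hybridised against 1 pool of RNA from 15 worms aged 4 days, labelled with Cy3, after amplification of both. A value is taken as the log2 ratio of worm over pool. The sources used here do not state this direction, and a reversed sign would turn every direction below.

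Each age was 1 harvest, so age and the day of harvest cannot be told apart. The spread behind every p-value is that between individuals of 1 cohort. A whole worm was the sample, so fewer cells of a type and less RNA per cell cannot be told apart in any value below. Missing values affected 9 to 464 of the 22490 probes per array, array medians ran from -0.034 to 0.009, and precision is set by how many arrays an age has. All comparisons with day 4 share the same 13 day 4 worms.

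Chaperones bind unfolded or partly folded proteins and help them to fold, to cross membranes or to be taken out of aggregates. The HSP70 family works by cycles of ATP binding and hydrolysis that are driven by J-domain proteins and nucleotide exchange factors, and HSP90 takes over client proteins such as kinases and receptors at a later stage. The ER and the mitochondria each have HSP70 members of their own, and each organelle can signal to the nucleus to make more of them when unfolded proteins build up. Most of the heat shock genes known from heat stress, such as those of the hsp-16 family, are made in quantity only under stress. By contrast, several of the genes described here are also needed in unstressed cells.

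Over the ages, the cytosolic chaperone genes and hsp-60 changed in a test across all 7 ages. The ER genes, hsp-6 and the small heat shock protein genes did not pass that test, although sip-1 was lower at day 16 than at day 8. In the moderated F test for any difference among the 7 ages (limma, Benjamini-Hochberg adjusted p under 0.05 over all genes), 4 of the 9 members were called, against 33% of all genes. These were hsp-90 (adjusted p = 0.000203), hsp-110 (adjusted p = 0.00255), hsp-60 (adjusted p = 0.00527) and hsp-1 (adjusted p = 0.013). The adjusted p was 0.122 for sip-1, 0.253 for hsp-4, 0.515 for hsp-6, 0.518 for hsp-3 and 0.722 for hsp-12.6. A straight line over age called 1 of 9 members, hsp-60, against 27.8% of all genes, and neither count stands far above its background. For each of the 9 members, no neighbours in the order of the 7 age means differed by test, the smallest adjusted p being 0.207 for hsp-60 at days 14 and 4.

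**Figure D1:**
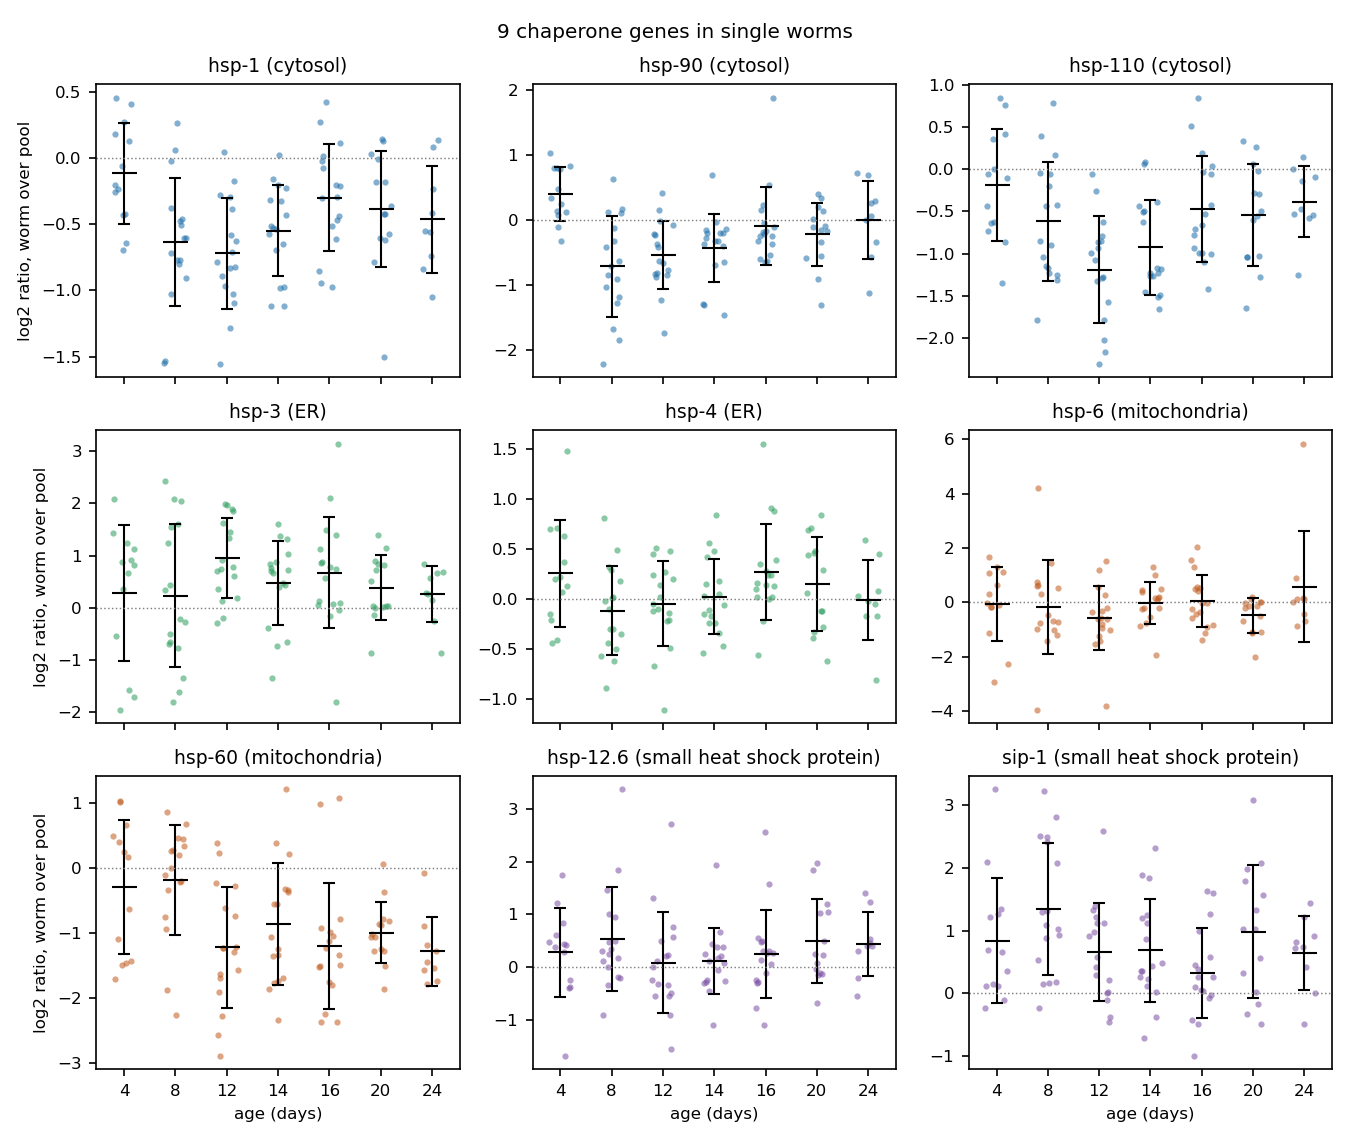
Log2 ratio of worm over pool (y axis, scale set per gene) for the 9 chaperone genes at 7 ages in days (x axis). Each point is 1 worm, the wide black dash is the mean of the age and the bar is 1 SD to either side. The means of hsp-1, hsp-90 and hsp-110 were lowest at day 8 or day 12, those of hsp-60 were at or below -0.86 from day 12 on, and 1 day 24 worm stood at 5.84 for hsp-6.

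Among the cytosolic genes, hsp-90 encodes the C. elegans HSP90, known as daf-21 in the older literature. Its ratio had a lowest value of -2.22, a median of -0.71 and a highest value of 0.64 in day 8 worms. In day 4 worms the lowest value was -0.32, the median 0.34 and the highest 1.04. The groups overlapped, but 11 of 17 day 8 worms lay below every day 4 worm, and 1 of 17 lay above the day 4 median. The ratio averaged -0.71 ± 0.78 at day 8 and 0.41 ± 0.42 at day 4 (SD, n = 17 and 13), a difference of -1.12 (SE 0.21, limma adjusted p = 6.72e-05). The day 4 worms themselves stood above the pool of the same age in stress-induced genes. The differences were 6.74 for hsp-16.2, 6.31 for hsp-16.41 and 1.82 for hsp-70 (limma adjusted p = 3.9e-26, 2.81e-26 and 3.22e-05), where 18.1% of all genes were called. For hsp-90 the adjusted p was 0.0678, with 11 of 13 day 4 worms above the pool. A dye effect cannot be told apart from these differences. Their part in the differences to day 4 was not tested.

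After day 8 the mean of hsp-90 was -0.54 at day 12, then -0.43 at day 14, -0.09 at day 16, -0.22 at day 20 and 0.004 at day 24. It was lower than at day 4 by test at days 12 (-0.94, adjusted p = 0.000404), 14 (-0.83, adjusted p = 0.00227) and 20 (-0.62, adjusted p = 0.0357), and missed the threshold at day 16 (-0.49, adjusted p = 0.0953) and day 24 (-0.40, adjusted p = 0.315). Against day 8 it was higher at day 16 by 0.62 (SE 0.20, adjusted p = 0.0214), with all 17 day 16 worms above the day 8 median. It was higher at day 24 than at day 8 by 0.71 (SE 0.24, adjusted p = 0.03), with 8 of 9 day 24 worms above that median. Over all ages its slope was 0.0005 per day (SE 0.011, adjusted p = 0.981). Without the day 4 worms the slope was 0.046 per day (SE 0.013, adjusted p = 0.00626). That rise was past the threshold, while no pair of successive ages from day 8 on differed by test in hsp-90.

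The gene hsp-1 encodes the constitutive cytosolic HSP70 (HSC70), the housekeeping partner of HSP90. It averaged -0.64 ± 0.48 in day 8 worms and -0.12 ± 0.38 in day 4 worms (SD, n = 17 and 13). At day 8 its lowest, median and highest values were -1.55, -0.61 and 0.27, and at day 4 they were -0.70, -0.20 and 0.45, so the ages overlapped and 8 of 17 day 8 worms lay below all day 4 worms. The difference was -0.52 at day 8 (SE 0.16, limma adjusted p = 0.0174), -0.61 at day 12 (SE 0.16, adjusted p = 0.00203) and -0.43 at day 14 (SE 0.16, adjusted p = 0.038). With arrays weighted by their quality the day 14 difference was -0.40 (adjusted p = 0.0791).

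At later ages hsp-1 was nearer to day 4, with means of -0.30 at day 16, -0.38 at day 20 and -0.46 at day 24, and none of these differed from day 4 by test. The size of its change was smaller than that of hsp-90 on the same log2 scale, with age means between -0.72 and -0.12 against -0.71 and 0.41 for hsp-90. This difference between the genes was not tested. Markers of some tissues differed at day 8 against day 4, where 11.4% of all genes were called and 6.14% called lower. Of 12 body wall muscle markers 4 fell and 0 rose, with a mean ratio from -1.36 to 0.26 over day 8 worms and from -0.78 to 0.81 over day 4 worms. Of 11 hypodermis markers 4 fell and 0 rose at that step, with a mean ratio from -0.68 to 0.37 at day 8 and from -0.45 to 0.59 at day 4. Of 15 oocyte and eggshell markers 4 rose and 0 fell, with a mean ratio from -0.26 to 1.05 at day 8 and from -1.47 to 0.37 at day 4. Of 13 intestine markers 2 rose and 3 fell, and of 14 germline markers 0 were called. The part of these tissues in the change of hsp-1 and hsp-90 was not tested.

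The third cytosolic gene, hsp-110, encodes an HSP70 relative that exchanges nucleotide on HSP70 and works with it in taking apart aggregates. Its decline was at its deepest at day 12, where the lowest, median and highest values were -2.31, -1.08 and -0.06, against -1.35, -0.11 and 0.85 at day 4. At day 12 none of 17 worms stood above the pool, and 1 of 17 lay above the day 4 median. The mean was -1.19 ± 0.63 at day 12 and -0.19 ± 0.66 at day 4 (SD, n = 17 and 13), a difference of -1.0 (SE 0.23, limma adjusted p = 0.000402). At day 14 the difference was -0.74 (SE 0.23, adjusted p = 0.0124). Markers of several tissues also differed at day 12 against day 4, where 22.7% of all genes were called and 11.2% called lower. Of 13 intestine markers 8 fell and 1 rose, with a mean ratio from -2.89 to -0.46 at day 12 and from -2.48 to 0.71 at day 4. Of 12 body wall muscle markers 6 fell and 0 rose, with a mean ratio from -2.01 to 0.23 at day 12 and from -0.78 to 0.81 at day 4. Of 14 germline markers 8 fell and 0 rose, with a mean ratio from -2.11 to 0.15 at day 12 and from -0.85 to 0.50 at day 4. Of 15 oocyte and eggshell markers 5 fell and 0 rose, and of 15 embryo markers 6 rose and 0 fell. Their part in the day 12 differences of hsp-110 and the other members was not tested.

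Before and after those ages, hsp-110 did not differ from day 4 by test, with -0.43 at day 8 (adjusted p = 0.236) and -0.20 at day 24 (adjusted p = 0.7). The step between days 8 and 12 was -0.57 (SE 0.21, adjusted p = 0.0535). The difference of 0.80 between days 24 and 12 had an adjusted p of 0.0918, so the return was not past the threshold.

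**Figure D2:**
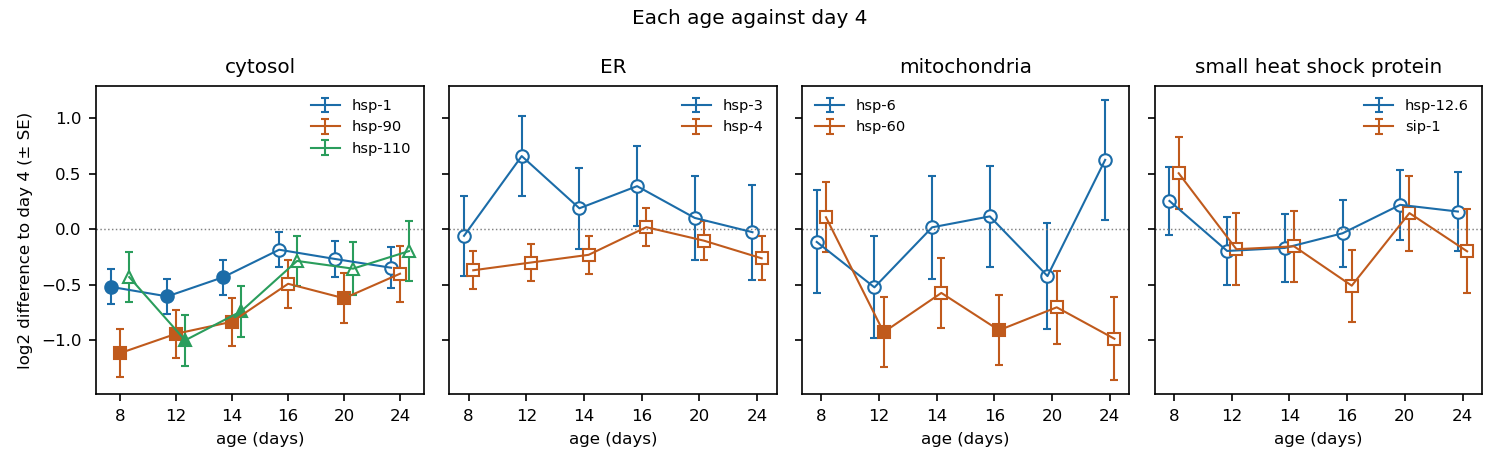
Log2 difference of each later age to day 4 (y axis, bars are 1 SE) over age in days (x axis) for the chaperone genes of 4 groups, with filled symbols where the limma adjusted p was under 0.05 and open symbols elsewhere. The cytosolic genes were low from day 8 to day 14 and closer to 0 from day 16, while hsp-60 was lower at days 12 and 16, and the ER and small heat shock protein genes have open symbols throughout.

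Counted by age, 2 of 9 members were lower at day 8 than at day 4, against 11.4% of all genes called in either direction and 6.14% called lower. At day 12, 4 of 9 members were lower (22.7% of all genes called, 11.2% lower), and at day 14, 3 of 9 (20.1% called, 9.64% lower). At day 16, 1 of 9 was lower (20.1% called, 9.89% lower), at day 20, 1 of 9 (20.5% called, 10.5% lower), and at day 24, 0 of 9 (16.5% called). No member was called higher than day 4 at any of the 6 ages. At day 24 the nearest to the threshold was hsp-60, at -0.99 (SE 0.37, adjusted p = 0.0546), which passed it with weighted arrays.

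Some genes that work with HSP90 fell with hsp-90 at day 8 against day 4, where 11.4% of all genes were called and 6.14% called lower. Of 9 measured genes of the list of HSP90 and its co-chaperones, 4 fell and 0 rose at day 8 against day 4, hsp-90 among them, and the list's median difference was -0.12, with that of all genes tested near 0. The other 3 were ahsa-1, the activator of the HSP90 ATPase, at -0.90 (limma adjusted p = 0.000443), daf-41, the p23 co-chaperone, at -0.76 (adjusted p = 0.0018), and fkb-6, an FKBP-type prolyl isomerase, at -0.62 (adjusted p = 0.0207). At day 24, where 16.5% of all genes were called, only daf-41 of this list was lower, at -0.81 (adjusted p = 0.00406). Of 6 prefoldin genes, whose product hands unfolded actin and tubulin to the cytosolic chaperonin, 3 fell and 0 rose at day 8, among them pfd-5 at -1.16 (adjusted p = 3.88e-05).

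Of 7 genes of that chaperonin, TRiC, 2 fell and 0 rose at day 8 against day 4, where 11.4% of all genes were called. They were cct-2 at -0.54 (adjusted p = 0.00999) and cct-1 at -0.49 (adjusted p = 0.035). Over the age trend 0 of the 7 were called by limma. Of 14 measured genes of the cytosolic HSP70 system, 1 rose and 1 fell at day 8 against day 4, and the gene that fell was hsp-1 itself. Over the trend 3 rose and 2 fell, where 27.8% of all genes were called, so the count is near the background. Neither hsp-1 nor hsp-110 was among those called over the trend. The steepest was unc-23, a BAG-domain gene of muscle, which rose by 0.059 per day (SE 0.013, adjusted p = 0.000157).

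The inducible heat shock genes went in part with the members and in part not. The stress-induced HSP70 gene hsp-70 was higher at day 8 than at day 4 by 4.19 (SE 0.46, limma adjusted p = 5.32e-12), where hsp-1 and hsp-90 were lower. The small heat shock protein genes hsp-16.2 and hsp-16.41 were lower at day 12 than at day 4 by test, at -4.07 and -3.89. At that age hsp-1, hsp-90, hsp-110 and hsp-60 were also lower than at day 4. Day 16 against day 14 was the step at which all 3 of these genes rose, by 2.61 for hsp-16.2, 3.37 for hsp-16.41 and 2.31 for hsp-70, and they were the 3 genes called higher of all 18889 (0.0159%). At that step 0 of 9 members were called (0.0159% of all genes called), and the differences ran from -0.35 for sip-1 to 0.45 for hsp-110, whose SE was 0.21.

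In the mitochondria, hsp-60 encodes the chaperonin of the matrix and hsp-6 the matrix HSP70, related to mortalin, and both are standard reporters of the mitochondrial unfolded protein response in C. elegans. The ratio of hsp-60 had a lowest value of -2.88, a median of -1.23 and a highest value of 0.38 in day 12 worms. In day 8 worms the lowest was -2.25, the median 0.01 and the highest 0.87. The ages overlapped, with 2 of 17 day 12 worms above the day 8 median and 3 of 17 below every day 8 worm.

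The mean of hsp-60 was -0.29 ± 1.04 at day 4, -0.18 ± 0.85 at day 8, -1.22 ± 0.93 at day 12, -0.86 ± 0.94 at day 14, -1.20 ± 0.97 at day 16, -0.99 ± 0.47 at day 20 and -1.27 ± 0.53 at day 24 (SD, n = 13, 17, 17, 17, 17, 14 and 9). Days 4 and 8 held the higher means. At day 12 against day 8 the difference was -1.04 (SE 0.29, limma adjusted p = 0.00821), and hsp-60 was the 1 member of 9 called there, against 15.6% of all genes. At later steps between successive ages 0 of 9 members were called, against 0% of all genes at day 14 against day 12, 0.0159% at day 16 against day 14, 0.254% at day 20 against day 16 and 0% at day 24 against day 20. From day 12 on, between 1 and 3 worms of days 12, 14, 16 and 20 stood above the pool, and 0 of 9 worms did at day 24.

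Against day 4, hsp-60 was lower at day 12 by test (-0.93, SE 0.32, adjusted p = 0.0227) and at day 16 (-0.91, SE 0.32, adjusted p = 0.0289), but not at day 14 (-0.57, adjusted p = 0.207) or day 20 (-0.70, adjusted p = 0.124). Over all ages the slope was -0.056 per day (SE 0.015, adjusted p = 0.00237). Without the day 8 worms it was -0.042 per day (SE 0.016, adjusted p = 0.0588), and without the day 4 worms -0.054 (SE 0.019, adjusted p = 0.0299).

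Markers of the germ line moved with hsp-60 at day 12 against day 8, where 15.6% of all genes were called. Of 14 markers of germline proliferation and meiosis, 8 fell and 0 rose at day 12 against day 8, and their mean ratio ranged over worms from -2.11 to 0.15 at day 12 and from -0.60 to 0.46 at day 8. Of 15 oocyte and eggshell markers, 10 fell and 0 rose at the same step, with a mean ratio from -1.47 to 0.52 at day 12 and from -0.26 to 1.05 at day 8. The part of these tissues in the change of hsp-60 was not tested. The named genes whose 7 age means were most like those of hsp-60 were cbd-1, dtmk-1 and fbf-2 (r = 0.99 each, over 7 points). Of these, cbd-1 is an eggshell gene, dtmk-1 a thymidylate kinase gene and fbf-2 a regulator of germline stem cells. They were picked as the highest of all named genes. Picked in the same way, nlp-22 for hsp-90 and coel-1 for hsp-12.6 also reached r = 0.99.

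For hsp-6 no pair of ages differed by test, and whether its course differed from that of hsp-60 was not tested. The age means of hsp-6 lay between -0.57 at day 12 and 0.57 at day 24, with SDs from 0.64 to 2.04. At day 12 against day 4 its difference was -0.52 (SE 0.46, limma adjusted p = 0.467). The day 24 mean rested on 1 worm at 5.84, where the next highest stood at 0.89. With that worm the difference to day 4 was 0.62, and without it -0.03 (SE 0.50, limma adjusted p = 0.979). The 8 other members in that worm ranked between 2 and 7 of 9 in the order from the highest.

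Other genes of mitochondrial protein import and folding were lower in mid life. Of 14 listed genes, the 2 members included, 8 fell and 0 rose at day 12 against day 4, hsp-60 among them (22.7% of all genes called, 11.2% lower). The median difference of the 14 was -0.56, against 0.01 for all genes tested. At day 24, 3 fell and 0 rose, against 16.5% of all genes called. The steepest was tin-44, the import motor subunit of the inner membrane, which fell by 0.068 per day (SE 0.010, limma adjusted p = 1.98e-08). The channel gene timm-23 went the other way over the trend, at 0.030 per day (adjusted p = 0.00434). One listed gene, nuo-3, belongs to respiratory complex I and not to import or folding, and it was not called over the trend (adjusted p = 0.85). It was kept in every count of this list.

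In the ER, hsp-3 and hsp-4 encode the 2 homologues of BiP, the HSP70 of the ER lumen, and hsp-4 is the usual reporter of the unfolded protein response. The 2 genes are close relatives, and whether their probes cross-hybridise was not tested. Neither changed over age by test. The age means of hsp-3 ran from 0.23 at day 8 to 0.95 at day 12, and those of hsp-4 from -0.11 at day 8 to 0.27 at day 16. For hsp-3 the day 12 difference to day 4 was 0.66 (SE 0.36, limma adjusted p = 0.199).

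The remaining ER genes were less even. Of 20 genes of ER chaperones and folding enzymes, the 2 members included, 9 rose and 2 fell at day 12 against day 4 (22.7% of all genes called, 11.2% lower). Their median difference was 0.42, against 0.01 for all genes tested. Over the trend 6 rose and 3 fell, where 27.8% of all genes were called. Among them were the disulphide isomerase genes pdi-3 (0.046 per day, limma adjusted p = 6.61e-05) and pdi-6 (0.066 per day, adjusted p = 0.00235) and crt-1, the lumenal lectin chaperone calreticulin (0.060 per day, adjusted p = 0.00127). Of 8 regulators of the unfolded protein response 3 rose and 0 fell over the trend, a count near the background of 27.8% of all genes called. They included xbp-1, the transcription factor gene spliced by IRE-1, at 0.051 per day (adjusted p = 4.63e-05), and the kinase gene pek-1 at 0.037 per day (adjusted p = 0.0118). Whether the probe of xbp-1 tells spliced from unspliced RNA was not tested.

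Spread between worms was wide for hsp-3, though not for it alone. The SD of hsp-6 was larger at days 4, 8, 12, 20 and 24 (1.37, 1.72, 1.19, 0.64 and 2.04). At day 4 the hsp-3 ratio ran from -1.96 to 2.09 with a median of 0.81, and at day 8 from -1.81 to 2.43 with a median of -0.22. At day 24 it ran from -0.87 to 0.84. The SD of hsp-3 was 1.31 at day 4, 1.37 at day 8, 0.77 at day 12, 0.81 at day 14, 1.07 at day 16, 0.61 at day 20 and 0.54 at day 24. Its absolute deviation from the age median changed by -0.035 per day (SE 0.012, limma adjusted p = 0.116), and that of hsp-60 by -0.025 per day (SE 0.010, adjusted p = 0.201). In this test 0 of 9 members were called at an adjusted p under 0.05, against 0.519% of all genes, and 2 of 9, hsp-3 and hsp-60, had an unadjusted p under 0.05, as had 2995 of all 18889 genes. With quantile normalisation, or with deviations taken from the mean, hsp-3 passed the threshold.

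Of the small heat shock protein genes, hsp-12.6 is a known target of the transcription factor DAF-16, and sip-1 encodes a small heat shock protein known from oocytes and embryos. The means of hsp-12.6 lay between 0.09 at day 12 and 0.54 at day 8, and no pair of ages differed by test. The highest single worms of days 8, 12 and 16 stood at 3.37, 2.71 and 2.56 for hsp-12.6.

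The ratio of sip-1 was above the pool in 11 of 13 day 4 worms, with a lowest value of -0.24, a median of 0.66 and a highest of 3.25. Its mean of 0.84 (SE 0.24, limma adjusted p = 0.00749) made it the 1 member of 9 called at day 4 against the pool, where 18.1% of all genes were called. The pool and the worms always had different dyes, so a dye effect of the probe cannot be told apart from this difference, while it is the same at every age. The mean of sip-1 was 1.35 ± 1.06 at day 8 and 0.33 ± 0.72 at day 16 (SD, n = 17 each), and day 16 was lower than day 8 by test (difference -1.01, SE 0.30, adjusted p = 0.012). In all, 3 of 9 members were called at day 16 against day 8 and 2 of 9 at day 24 against day 8, against 15.3% and 15.1% of all genes. The mean ratio of the 15 oocyte and eggshell markers ranged from -1.47 to 0.77 over day 16 worms and from -0.26 to 1.05 over day 8 worms, and its part in the change of sip-1 was not tested.

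Worms of the same age differed in these genes, and some members varied together. For each member, every other gene was fitted with that member's ratio beside the age factor, and a pair was called when both of its fits passed the threshold. Of 36 pairs of members 6 were called, 3 of the same sign and 3 of opposite sign. Of all other genes, 1.06% were called with hsp-1, 24.5% with hsp-3, 5.56% with hsp-4, 0.00529% with hsp-6, 14.7% with hsp-60, 17% with hsp-90, 14% with hsp-110, 0.143% with hsp-12.6 and 18.3% with sip-1. The background was thus high for hsp-3, sip-1, hsp-90, hsp-60 and hsp-110 and low for hsp-1, hsp-6 and hsp-12.6.

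**Figure D3:**
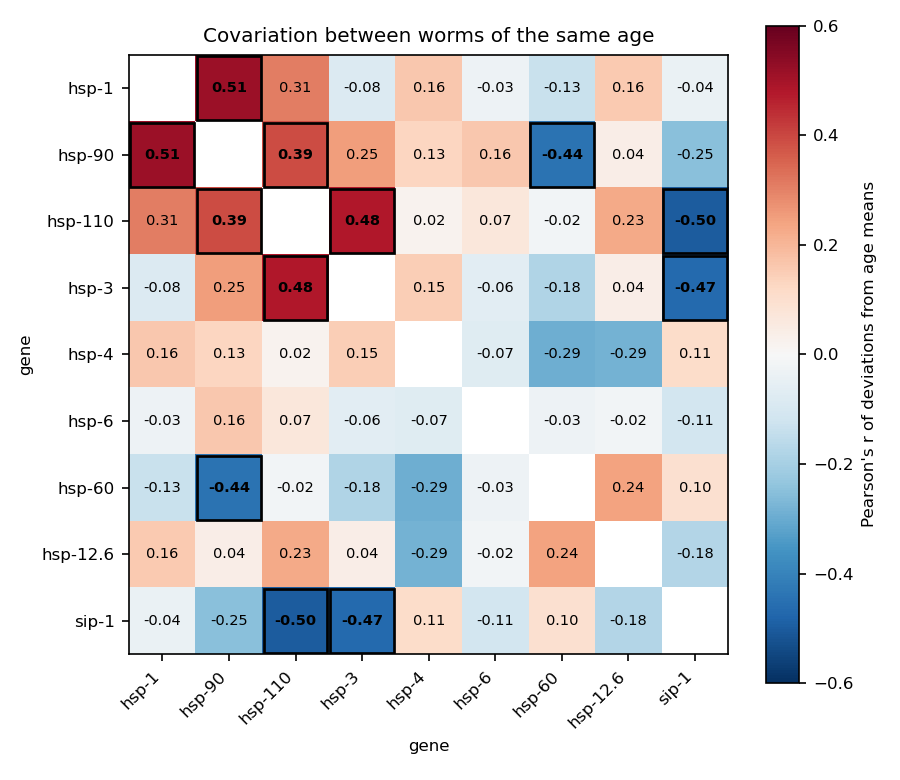
Pearson's r (colour and number) of the deviations from the age means over worms for every pair of the 9 chaperone genes on both axes, with frames round the 6 pairs called by limma in both fits. The frames with positive r join hsp-90 with hsp-1 and hsp-110, and hsp-110 with hsp-3, and those with negative r join sip-1 with hsp-110 and hsp-3, and hsp-60 with hsp-90.

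The pair hsp-1 and hsp-90 varied together at every age. Over all worms the deviations had r = 0.51 and Spearman's rho = 0.56 (permutation within ages, p = 1e-05 for both, the smallest that 100000 permutations give). Without the 2 worms farthest out in hsp-1, r was 0.46. For every pair the farthest worms were taken by the first gene named, so worms far out in the second gene stayed in. The adjusted p was 0.000809 with hsp-1 as covariate and 1.53e-05 with hsp-90. Within ages r was 0.67 at day 4, 0.44 at day 8, 0.53 at day 12, 0.40 at day 14, 0.46 at day 16, 0.73 at day 20 and 0.60 at day 24. By r, hsp-90 ranked 3 among the 18888 other genes fitted on hsp-1.

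The pair hsp-3 and hsp-110 had r = 0.48 and rho = 0.44 (permutation p = 2e-05 and 3e-05, and r = 0.45 without the 2 farthest worms), and its adjusted p was 1.56e-05 and 4.17e-05. It was uneven over the ages, with r = 0.83 at day 8 and r = 0.73 at day 16, but r = 0.07 at day 14 and r = -0.39 at day 12. The pair hsp-90 and hsp-110 had r = 0.39 and rho = 0.42 (permutation p = 9e-05 and 2e-05, and r = 0.37 without the 2 farthest), and r was above 0 at 6 of 7 ages, with -0.30 at day 4. Its adjusted p was 0.00147 and 0.00185, and without the day 8 worms the larger of them was 0.0525.

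In the opposite direction, hsp-110 and sip-1 had r = -0.50 and rho = -0.50 (permutation p = 1e-05 for both, and r = -0.47 without the 2 farthest), with r below 0 at each of the 7 ages, from -0.64 to -0.29. The pair hsp-3 and sip-1 had r = -0.47 and rho = -0.44 (permutation p = 1e-05 and 2e-05, and r = -0.43 without the 2 farthest), with r from -0.71 to -0.13 within ages. The pair hsp-60 and hsp-90 had r = -0.44 and rho = -0.42 (permutation p = 1e-05 and 3e-05, and r = -0.47 without the 2 farthest), with r from -0.66 to -0.17 within ages. A worm with more hsp-90 RNA than others of its age thus tended to have less hsp-60 RNA, although both genes were lower at day 12 than at day 4.

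**Figure D4:**
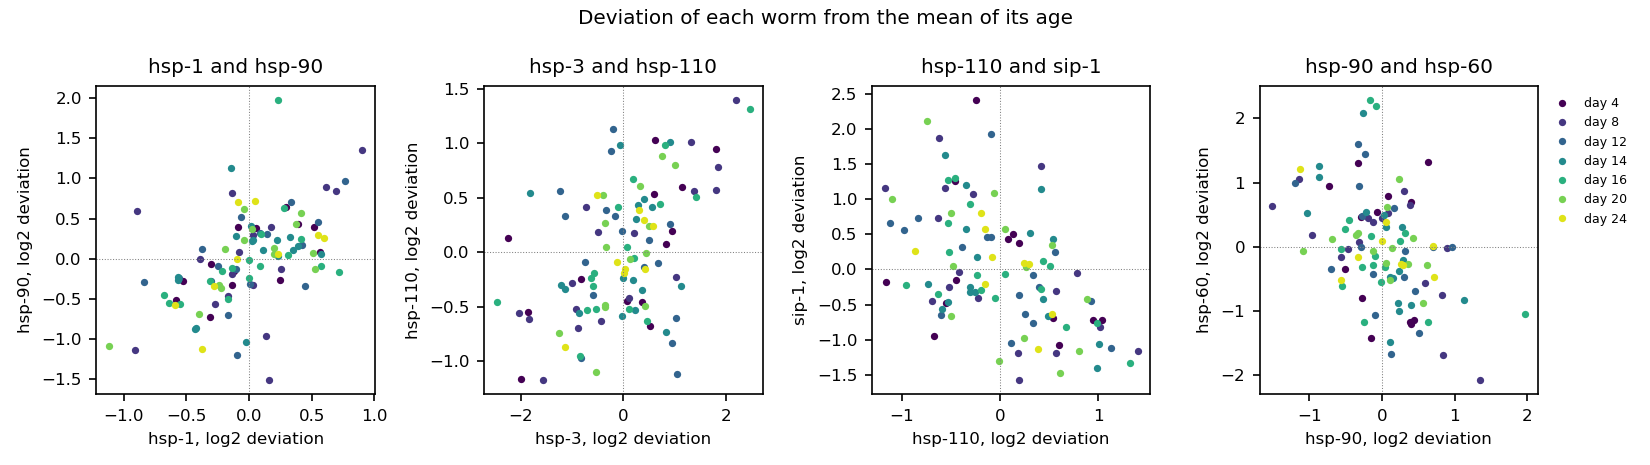
Deviation of each worm's log2 ratio from the mean of its age for 4 pairs of chaperone genes, the first gene on the x axis and the second on the y axis, with 1 point per worm coloured by age in days. The clouds of hsp-1 with hsp-90 and of hsp-3 with hsp-110 slope upwards (r = 0.51 and 0.48), and those of hsp-110 with sip-1 and of hsp-90 with hsp-60 slope downwards (r = -0.50 and -0.44).

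The ER pair and the mitochondrial pair were not called by this test, while the cytosolic pairs hsp-1 with hsp-90 and hsp-90 with hsp-110 were. The calls do not compare the compartments, since 0.00529% of all genes were called with hsp-6 and 17% with hsp-90. With so few calls on hsp-6, its pair could hardly pass both fits. The 2 BiP homologues hsp-3 and hsp-4 had r = 0.15 and rho = 0.17 (permutation p = 0.163 and 0.0952), and r within ages ran from -0.11 to 0.61. The mitochondrial pair hsp-6 and hsp-60 had r = -0.03 and rho = -0.01 over the worms with both values (permutation p = 0.766 and 0.933), with r from -0.50 to 0.46. The pair hsp-1 and hsp-110 had r = 0.31 and rho = 0.33 (permutation p = 0.00219 and 0.001) and passed the threshold in 1 of its 2 fits (adjusted p = 0.0979 and 0.0259).

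Beyond the members, the named genes most like hsp-3 over worms of the same age were trap-2, a subunit of the translocon-associated complex (r = 0.83), lmp-1, a lysosomal membrane protein gene (r = 0.82), and pdi-6 (r = 0.80). Of 19 other ER chaperone and folding genes, 11 were called in the same direction as hsp-3 and 0 in the opposite one (24.5% of all genes called). For hsp-4 the same count was 1 and 0 of 19 (5.56% of all genes called), and its nearest named gene was vha-12, a subunit of the vacuolar proton pump (r = 0.61).

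Nearest to hsp-90 were the translation elongation factor genes eef-2 (r = 0.77) and eef-1A.1 (r = 0.64) and cnx-1, which encodes the ER chaperone calnexin (r = 0.63). Nearest to hsp-60 were coq-1, an enzyme gene of ubiquinone synthesis (r = 0.70), hyl-1, a ceramide synthase gene (r = 0.69), and rnf-5, a ubiquitin ligase gene (r = 0.69). Of 13 other listed genes of mitochondrial folding and import, nuo-3 included, 6 were called in the same direction as hsp-60 and 0 in the opposite one (14.7% of all genes called). By the same count hsp-6 was called with 0 of 13, which is near its share of 0.00529% of all genes. The closest named genes to sip-1 were latd-1, hmg-12 and hil-4 (r = 0.75 each), of which hil-4 encodes a linker histone. These correlations describe worms that share a reference pool, and the genes were picked as the highest of all.

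Germline markers split the members. In the fits on hsp-3, 13 of 14 markers of germline proliferation and meiosis were called in the opposite direction, against 11.2% of all genes called so. Of 15 oocyte and eggshell markers 7 went against hsp-3 and 1 with it. Markers of other tissues were also called in these fits. Of 13 neuron markers 6 went with hsp-3 and 1 against it, and of 15 embryo markers 5 went with it and 2 against it. In the fits on sip-1, where 18.3% of all genes were called in either direction, 12 of 14 germline markers were called in the same direction. So were 10 of 15 oocyte and eggshell markers. For hsp-60, 9 of 14 germline markers and 6 of 15 oocyte markers went with it (14.7% of all genes called). For hsp-90, 8 of 14 and 9 of 15 went against it (17% of all genes called). For hsp-110, 6 of 14 and 5 of 15 went against it (14% of all genes called), and 2 oocyte markers each went with hsp-90 and with hsp-110. No marker of either list was called with hsp-1, hsp-6 or hsp-12.6, with which 1.06%, 0.00529% and 0.143% of all genes were called. With so few calls, the absence of markers does not set these genes apart.

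With the mean of the germline markers and the mean of the oocyte markers of each worm as further terms, an alternative chosen after seeing the data, 5 of the 6 pairs of members passed the threshold in both fits. The exception was hsp-3 and sip-1, with a slope of -0.25 and an adjusted p of 0.0687. The number of genes called with hsp-3 was 1377 with these terms and 4620 without them. With sip-1 it was 1086 with the terms and 3451 without, and with hsp-60 it was 1023 with the terms and 2780 without. It was also smaller with the terms for hsp-4, hsp-90, hsp-110 and hsp-6. It was larger for hsp-1, with 322 genes with the terms and 200 without, and for hsp-12.6, with 89 with the terms and 27 without.

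**Figure D5:**
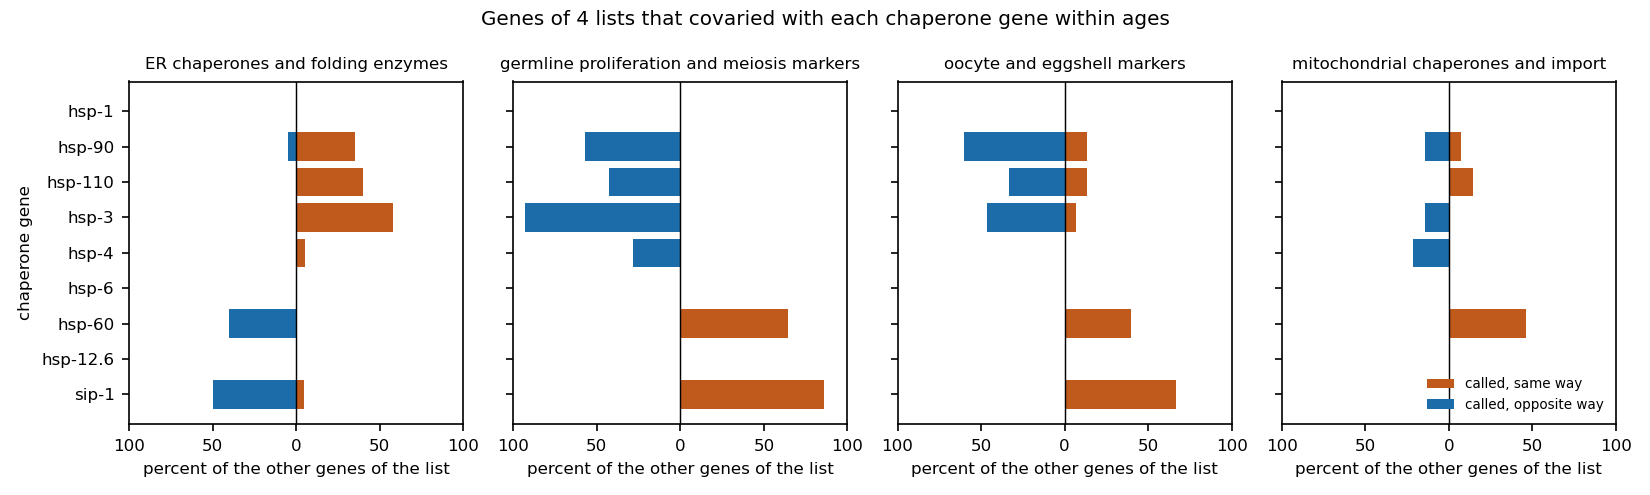
Percent of the other genes of 4 lists (x axis) that limma called as varying within ages in the same direction as a chaperone gene (right of 0, orange) or in the opposite direction (left of 0, blue), with 1 row per chaperone gene. Called germline and oocyte markers lie to the right for sip-1 and hsp-60 and mostly to the left for hsp-3, hsp-90 and hsp-110, with germline markers also to the left for hsp-4, and the called ER genes mostly lie on the other side.

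Regulators and inducible genes also varied with some members. The expression of hsf-1, the gene of the heat shock transcription factor, went with hsp-60 (r = 0.47, limma adjusted p = 7.7e-05) and against hsp-90 (r = -0.39, adjusted p = 0.00186). The gene daf-16 did likewise, with r = 0.32 for hsp-60 (adjusted p = 0.019) and r = -0.39 for hsp-90 (adjusted p = 0.00262). For hsp-110 all 3 inducible heat shock genes went with it, hsp-16.41 at r = 0.41 (adjusted p = 0.000756), hsp-16.2 at r = 0.39 (adjusted p = 0.00161) and hsp-70 at r = 0.29 (adjusted p = 0.0298). So did xbp-1, at r = 0.47 (adjusted p = 9.21e-05), while xbp-1 went against sip-1 (r = -0.31, adjusted p = 0.0157). The gene hsp-16.41 also went with hsp-3 (r = 0.36, adjusted p = 0.00216) and against sip-1 (r = -0.27, adjusted p = 0.0388). Among the 3 cytosolic members, hsp-1 was called with none of these 6 genes (1.06% of all genes called). The gene hsp-90 was called with 1 of the 3 inducible genes, hsp-16.41 (r = 0.39, adjusted p = 0.00117).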

How the data were processed

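The deposited values were log ratios, 1 for each probe of each 2-colour array. They were taken as log2 of worm (Cy5) over pool (Cy3), a scale and direction that the authors' tables do not state. Per the submitters' processing notes limma was used, with no version. How background was corrected and arrays were normalised is not given in the sources used here, and intensities were not used here. The 2 deposited tables held identical values (largest difference 0), with a median absolute deviation of 0.579 to 0.601 per array. Missing values (0.537%) were left missing.

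Probe names, without splice letter, were matched to RefSeq names of the WBcel235 assembly (21382 of 22490 probes). Probes of 1 gene were averaged, giving 18889 genes. No sequence or coordinate was used here. All arrays entered each linear model (limma 3.58.1, R 4.3.3, lmFit and eBayes), with age as a factor or in days. A call needed an adjusted p (Benjamini-Hochberg, over all genes) under 0.05. Spread was the absolute deviation from the age median, fitted on age. Correlations used deviations from age means and 100000 permutations within ages. The fits were checked on simulated data.

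Members, lists and tests were chosen with earlier results of these data known. All 9 members were named in every comparison. For each member the 3 named genes most like it by age means and by deviations were found, and from each list at most 4 genes by p for the trend and 4 by the F test. The rule also named hsp-16.2, hsp-16.41, hsp-70, hsf-1, xbp-1, daf-16 and the TRiC genes. Alternatives were quantile normalisation, centring and scaling of arrays, array weights, genes with a value on every array, another eBayes setting, 1 probe per gene, log2 of age and leaving out ages.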

Additional observations from a re-analysis of the deposited data

Results flagged for a closer look

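For hsp-6, 1 of the 9 day 24 worms stood far from the others, at a log2 ratio of 5.84 against at most 0.89 in the other 8. With it the day 24 mean was 0.57 ± 2.04 (SD, n = 9), and without it -0.08 ± 0.56 (SD, n = 8). Only day 24 is a group of a size at which a single distant sample was tested, which made 9 tests, 1 per member, and chance marks about 1 in 20 groups. The gene has 1 probe on the array, so no further probe bears on the value. Distant hsp-6 values were not confined to day 24. At day 8 the ratio ran from -3.95 to 4.22, and the lowest values were -3.81 at day 12 and -2.93 at day 4.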

How the results depend on the processing

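Of 124 recomputed counts of called members or pairs, 113 stayed within 1.5 times of the reported count, and of 163 recomputed single results 159 kept their direction and their side of the threshold; none reversed. At day 24 against day 4 the count was 1, hsp-60, with array weights and with genes that had a value on every array, against 0. At day 12 against day 8 it was 2 with quantile normalisation, with array weights and with genes on every array, against 1; hsp-110 was added in the first and last of these, and hsp-3, higher, with array weights. For day 4 against the pool it was 2 with quantile normalisation and with arrays scaled to 1 SD, against 1, by the addition of hsp-90. Over the age trend it was 2 without the day 4 worms (hsp-90 added) and 0 without the day 8 worms, against 1. For spread it was 1, hsp-3, with quantile normalisation and with deviations from the mean, against 0. The cause was not tested for any of these. The 4 single results that lost their call were hsp-1 at day 14 with array weights, the hsp-60 trend without the day 8 worms, hsp-90 with hsp-110 without the day 8 worms and hsp-3 with sip-1 with the marker means as terms. Genes with a value on every array numbered 14067 and left out hsp-6. No paired analysis was possible because the labels give no replicate numbers that ages share. Background correction, a filter on dim probes and slide as a block could not be run, since only ratios were used here. Signal over background is unknown for each of the 9 members.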
